A study of Mus musculus with 82 samples.

Results

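The genes described here are Gpnmb and 8 general markers of macrophages: Cd68, Cd14, Adgre1, Csf1r, Lyz2, Trem2, Msr1 and Marco. They were chosen by name, as all probe sets of the array annotated to one of these symbols alone, which gave 15 probe sets for 9 genes, out of 22690 probe sets and 12393 genes on the array. All 15 passed the filter on low values. Csf1r had 3 probe sets, Msr1 had 4, Trem2 had 2 and the other genes had 1 each. Each gene is described by its brightest probe set, and the others are given beside it.

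RNA was measured in oil granulomata, the inflammatory tissue that forms in the mouse peritoneum around injected mineral oil. All mice were BALB/c mice carrying iMycEμ, a Myc gene inserted into the immunoglobulin heavy chain locus, were at least 8 weeks old, and had received 0.5 ml of pristane, the oil, into the peritoneum. There was no group without the insertion or without pristane. In the captured samples, plasma cells stained with methyl green and pyronin were cut out of granuloma sections by laser, and the labels call them nascent plasma cell tumor cells. In the whole granuloma samples the section was left undissected. Mice of 2 independent cohorts were used, here called study 2 and study 1. Study 2 had 3 specimens of each tissue type on each of days 7, 17, 33, 49 and 105 after pristane. In study 1 there were 4 specimens of captured cells on day 7, 4 on day 17, 3 on day 33, 3 on day 46 and 1 on day 104, and for whole granuloma 2 on day 7, 2 on day 17, 3 on day 33 and 1 on day 104. The 82 arrays were averaged by specimen and tissue type into 53 averages.

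Macrophages take up and digest particles, dying cells and oil, and granulomata of mineral oil are rich in them. Csf1r is the receptor for the growth factor that keeps macrophages alive. Adgre1 encodes F4/80 and Cd68 a protein of the lysosome membrane, both used to stain macrophages, and Lyz2 encodes the lysozyme of myeloid cells. Cd14 is the co-receptor that hands bacterial lipopolysaccharide to Tlr4. Msr1 and Marco are class A scavenger receptors, which bind modified lipoproteins, bacteria and particles. Trem2 is a receptor for lipids that signals through the adaptor Tyrobp. Gpnmb encodes a membrane glycoprotein that macrophages with loaded lysosomes make, and its transcription is known to be driven by Mitf-family factors. Plasma cells are not known as a source of these transcripts.

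The tissue types differed in RNA quality and in array brightness. The median log2 value of an array as deposited was 5.309 to 5.641 for captured cells and 7.113 to 7.335 for whole granuloma in study 2. It was 4.973 to 5.111 for captured cells and 5.727 to 5.825 for whole granuloma in study 1. The difference between 3′ and 5′ control probe sets, which grows as RNA is degraded or repeatedly amplified, was 4.14 ± 0.902 log2 units in captured cells and 1.61 ± 0.132 in whole granuloma in study 2 (SD, 30 and 15 arrays). It was 4.49 ± 0.684 in captured cells and 3.19 ± 0.364 in whole granuloma in study 1 (SD, 25 and 12 arrays). Tissue types were therefore compared on values quantile-normalized across arrays, and days on the deposited values. One array of captured cells of day 49 of study 2 stood apart. It correlated at 0.255 with the second array of its specimen, where the lowest other such pair reached 0.914, and its 99th percentile was 8.697, against at least 12.26 on the other arrays. Lyz2 read 5.03 on it and 13.03 on the second array, and Gpnmb read 6.20 and 10.70. It was kept in the average of its specimen, and results that moved without it are given with both values. The part of these differences in RNA quality in the results below was not tested beyond the fits that carry the 3′ minus 5′ difference as a covariate.

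The first question was how much macrophage transcript the captured cells still carried beside the whole tissue. In both studies 8 of the 9 genes were lower in captured cells than in whole granuloma and none was higher (limma, adjusted p under 0.05). Across all probe sets tested, 70.5% passed the test in study 2 and 61.5% in study 1, and 35.9% and 29.3% passed it downwards in captured cells, with 34.6% and 32.2% upwards. The median difference, captured cells minus whole granuloma, was -1.30 log2 units over the 9 genes in study 2 and -1.76 in study 1, beside -0.02 and 0.06 over all probe sets tested. The exceptions were Csf1r in study 2 and Trem2 in study 1. Scaling sets the balance of such calls: of all calls in study 2, 49.1% were upward on quantile-normalized values, 0.72% on the deposited values and 61.5% after centring each array on its median. In study 1 these shares were 52.4%, 12.7% and 58.1%. In bulk samples, fewer macrophages and less of a transcript per macrophage cannot be told apart.

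Gpnmb, made by lipid-laden and lysosome-loaded macrophages, had a lowest, median and highest log2 level of 6.27, 7.82 and 9.94 in captured cells of study 2, against 7.23, 10.00 and 12.32 in whole granuloma (15 specimens each). The ranges overlapped, but in every one of the 15 specimens with both tissue types the captured cells were lower. The difference was -1.76 (SE 0.21), 3.40-fold lower in captured cells, with an adjusted p of 1.6e-09. In study 1 captured cells were 6.18-fold lower, at -2.63 (SE 0.30), adjusted p 1.7e-09, and lower in all 5 pairs. Without the single specimen of day 104 the study 1 difference was -1.54.

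Cd68, the lysosomal marker, had a lowest, median and highest level of 6.31, 8.71 and 10.16 in captured cells of study 2, against 9.04, 10.62 and 12.18 in whole granuloma. All 15 pairs were lower in captured cells. The difference of -1.84 (SE 0.23) was a 3.57-fold lower level, adjusted p 7.8e-09. In study 1 it was -1.58 (SE 0.33), 2.99-fold, adjusted p 9.5e-05, lower in 4 of 5 pairs, and -0.94 without the specimen of day 104.

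Lyz2 remained among the brightest transcripts of the captured cells. Its median position on the array was the 99th percentile in captured cells and percentile 99.7 in whole granuloma of study 2, and percentiles 98.9 and 99.8 in study 1. Its lowest, median and highest levels were 8.72, 12.09 and 13.47 in captured cells of study 2, against 11.62, 13.38 and 13.89 in whole granuloma. The lowest captured value is of the specimen that holds the array that stood apart. The difference was -1.30 (SE 0.21), 2.46-fold, adjusted p 8.2e-07, lower in 15 of 15 pairs. With arrays centred on their medians it was 0.01 with no call, so the direction of Lyz2 in study 2 depended on the scaling. In study 1 it was -1.83 (SE 0.30), 3.55-fold, adjusted p 1.8e-06, lower in 5 of 5 pairs. Probe sets for Lyz2 can bind the near-identical lysozyme transcript Lyz1, so the value may hold both.

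**Figure D1:**
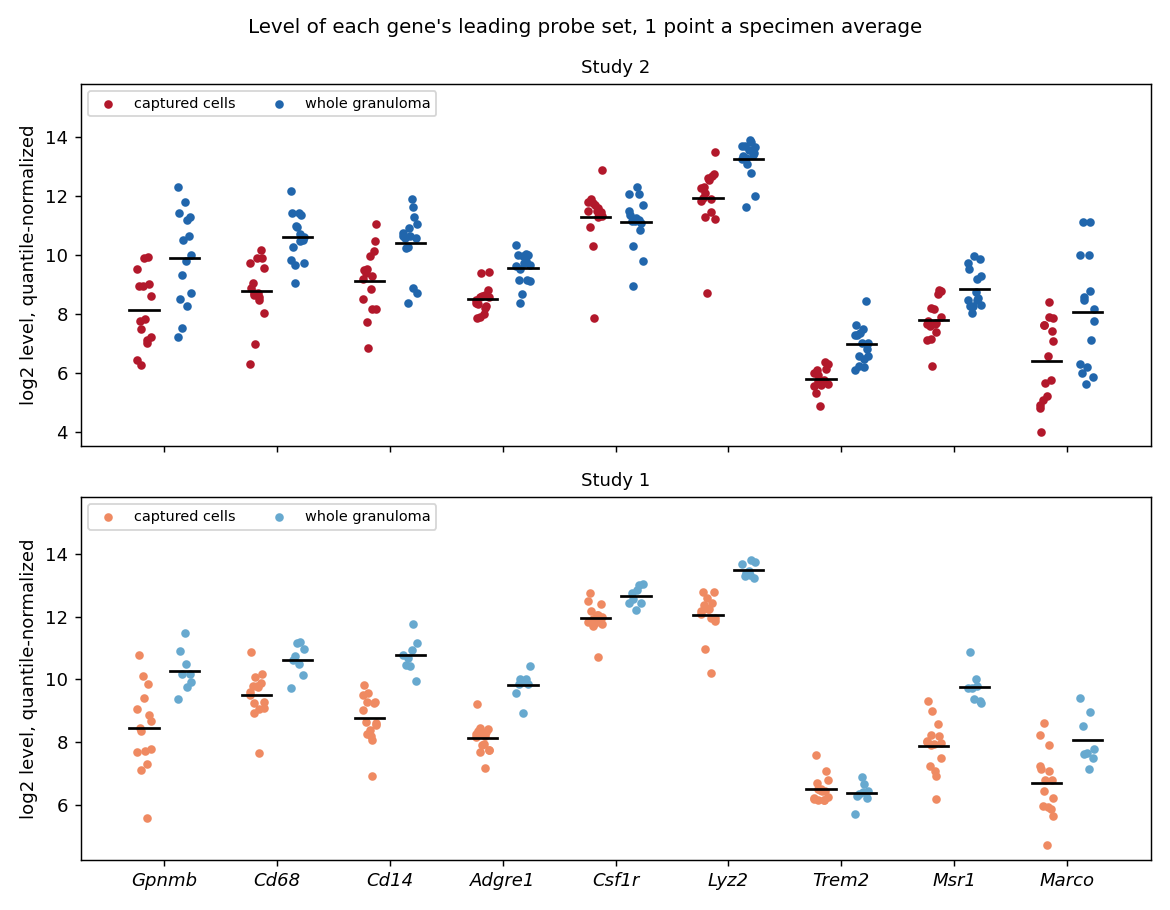
Log2 levels of the brightest probe set of each gene on quantile-normalized values, with study 2 above and study 1 below. Each point is 1 specimen average, captured cells left of whole granuloma, and the black bars are means. Lyz2 and Csf1r stand highest in both tissue types, captured cells sit lower for most genes, and the ranges of most genes overlap.

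Adgre1, the F4/80 antigen, and Cd14, the lipopolysaccharide co-receptor, were both depleted in the captured cells. For Adgre1 the difference was -1.05 (SE 0.16), 2.07-fold, adjusted p 3.9e-07 in study 2 and -1.76 (SE 0.23), 3.40-fold, adjusted p 3e-08 in study 1. It was lower in 14 of 15 and 5 of 5 pairs. Cd14 differed by -1.30 (SE 0.22), 2.47-fold, adjusted p 2.5e-06 in study 2 and by -2.43 (SE 0.32), 5.40-fold, adjusted p 2.8e-08 in study 1, lower in all 15 and all 5 pairs. With the 3′ minus 5′ difference as a covariate the Adgre1 difference of study 2 no longer passed (adjusted p 0.147).

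The scavenger receptors followed. Msr1 differed by -1.08 (SE 0.20), 2.11-fold, adjusted p 9.8e-06 in study 2, where 13 of 15 pairs were lower, and by -2.19 (SE 0.28), 4.55-fold, adjusted p 2.6e-08 in study 1. The levels of Marco ran from 4.01 up to 8.39 in captured cells of study 2, with a median of 6.58, and from 5.64 up to 11.13 in whole granuloma, with a median of 8.18. Its difference was -1.68 (SE 0.33), 3.20-fold, adjusted p 3e-05, lower in 13 of 15 pairs, and -1.30 (SE 0.48), 2.46-fold, adjusted p 0.017, lower in 5 of 5 pairs in study 1. With the 3′ minus 5′ covariate Marco passed in neither study, at -0.23 (adjusted p 0.865) in study 2 and -0.53 (adjusted p 0.52) in study 1. In study 1 its call also ended with a fixed block of the specimens that have both tissue types, at -1.04 (adjusted p 0.236).

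**Figure D2:**
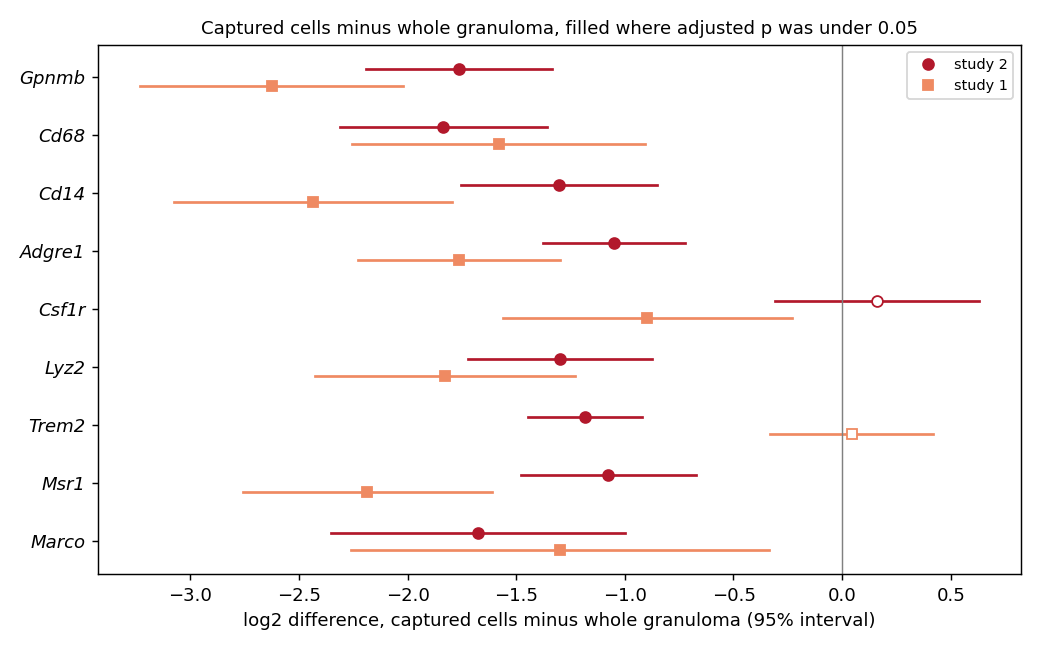
Difference in log2 level, captured cells minus whole granuloma, for the brightest probe set of each gene, study 2 as circles above study 1 as squares, with 95% intervals. Filled symbols passed the test, and the intervals of Csf1r in study 2 and Trem2 in study 1 include 0.

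Csf1r and Trem2 gave different answers by probe set. The brightest probe set of Csf1r was 1419872_at. In study 2 its levels were 7.86 to 12.87 in captured cells and 8.95 to 12.29 in whole granuloma. The lowest captured value is of the specimen that holds the array that stood apart. The difference of this probe set was 0.16 (95% interval -0.31 to 0.63, adjusted p 0.55). Without the array that stood apart it was 0.43 and passed upwards (adjusted p 0.0198), and on the deposited values it was -0.88. In study 1 it was -0.90 (SE 0.33), 1.86-fold lower, adjusted p 0.018, but -0.69 with adjusted p 0.0606 without the specimen of day 104, -0.97 with adjusted p 0.0919 with a fixed block of specimens, and -0.21 with adjusted p 0.555 after median centring. A dimmer probe set of Csf1r, 1423593_a_at, was lower in captured cells of both studies, at -1.40 (adjusted p 8.5e-11) and -1.96 (adjusted p 4.5e-10), and in all 15 and all 5 pairs. With the 3′ minus 5′ covariate its study 2 difference no longer passed, at -0.96 (adjusted p 0.0654). The remaining one, 1419873_s_at, gave -0.08 (adjusted p 0.67) in study 2 and -1.54 (adjusted p 1.2e-06) in study 1. The direction of Csf1r in study 2 was therefore not settled.

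The brighter probe set of Trem2, 1421792_s_at, had levels of 4.89 to 6.37 in captured cells of study 2, against 6.11 to 8.45 in whole granuloma, so that few values overlapped. This probe set lay not far above the middle of its arrays. Its median percentile was 52.2 in captured cells and 66.9 in whole granuloma of study 2, and 60 and 59.7 in study 1. Its difference was -1.18 (SE 0.13), 2.27-fold, adjusted p 2.5e-10, lower in 15 of 15 pairs. In study 1 it was 0.04 (95% interval -0.33 to 0.42, adjusted p 0.85) and lower in 2 of 5 pairs. The dimmer probe set, 1421226_at, was near the middle of its arrays, at a median percentile of 41.3 in captured cells and 45.9 in whole granuloma of study 2. It fell by 0.39 in captured cells of study 2 (adjusted p 3.6e-05), but with the 3′ minus 5′ covariate it no longer passed, at -0.52 (adjusted p 0.0638). In study 1 it was 0.89 higher in captured cells (adjusted p 1.5e-08). The 3 dimmer probe sets of Msr1 disagreed likewise: 1422062_at was higher by 0.40 in captured cells of study 2 (adjusted p 0.036) and differed by -1.10 in study 1 (adjusted p 2e-04). The upward difference of study 2 was not stable: it was -1.29 on the deposited values and -0.48 with the 3′ minus 5′ covariate, and its call ended in 8 of the 33 fits that left out 1 specimen. For 1425435_at the differences were 0.34 (adjusted p 0.066) and -1.38 (adjusted p 3.8e-06). For 1425434_a_at they were -0.20 (adjusted p 0.18) and 0.15 (adjusted p 0.52). Of the 15 probe sets, study 2 had 10 lower and 1 higher in captured cells, against 12 and 1 for study 1. The upward probe sets were Msr1 1422062_at in study 2 and Trem2 1421226_at in study 1, with the limits given above.

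The studies were then compared over days 7, 17 and 33 and the last day (105 and 104), as study 2 minus study 1 of the tissue difference. Of the 9 genes, 4 differed, beside 47% of all probe sets tested. The tissue difference lay higher in study 2 for Cd14, by 1.41 (SE 0.40, adjusted p 0.0039), for Csf1r, by 1.38 (SE 0.42, adjusted p 0.0066) and for Msr1, by 1.17 (SE 0.36, adjusted p 0.0072). Trem2 went the other way, at -1.04 (SE 0.24, adjusted p 4e-04), on a probe set not far above the middle of its arrays. Without the single specimen of day 104 of study 1 only Trem2 passed, at -1.42 (adjusted p 1.26e-05), and Cd14, Csf1r and Msr1 were 0.92, 1.00 and 0.80 with adjusted p of 0.0725, 0.0609 and 0.0819. With the 3′ minus 5′ covariate only Trem2 passed, at -1.34 (adjusted p 0.000393). Gpnmb differed by 0.84 with no call (adjusted p 0.066), and by -0.02 without the specimen of day 104. Of all calls of this comparison 49.1% were upward, against 4.41% on the deposited values and 58.5% after median centring.

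The depletion of the captured cells was also followed by day. For Gpnmb in study 2 it was -1.09, -1.38, -2.21, -1.68 and -2.45 on days 7, 17, 33, 49 and 105, and in study 1 it was -1.95, -1.81, -0.88 and -5.87 on days 7, 17, 33 and 104, the last from 1 specimen. For Marco in study 2 it was -2.93 and -3.24 on days 7 and 17 and -0.47, -0.91 and -0.83 on the later days. None of the 9 genes passed the test of a change over the days, in study 2 (4.40% of all probe sets passed) or in study 1 (0%). At an unadjusted p under 0.05 there were 2 of the 9 genes in study 2 and 1 in study 1, with 26.4% and 3.63% of all probe sets. The smallest adjusted p was 0.1 for Trem2 in study 2 and 0.39 for Gpnmb in study 1.

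The next comparison asked which of these genes changed in the whole granuloma as it aged. In study 2, 4 of the 9 genes changed over the 5 days, where 23.1% of all probe sets did: Gpnmb, Marco, Trem2 and Cd14. Without the array that stood apart, which is of captured cells but shares the estimate of the spread, 7 of 9 did, where 33.5% of all probe sets did, the additional ones being Cd68, Csf1r and Lyz2. Between days 105 and 7, 2 genes differed, Gpnmb upwards and Cd14 downwards, where 17.9% of all probe sets passed, 6.81% upwards and 11.1% downwards. In study 1, with 8 specimens of whole granuloma, no gene passed over the days (0.0210% of all probe sets) or between days 104 and 7 (0% of all probe sets). At an unadjusted p under 0.05 there were 0 and 1 of the 9 genes, with 3.11% and 2.72% of all probe sets.

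Gpnmb rose in the whole granuloma of study 2 to day 33. It read 8.81, 9.77 and 9.03 on day 7, and 11.30, 11.10 and 9.92 on day 17. It read 12.42, 12.83 and 12.30 on day 33 and 11.90, 11.75 and 13.24 on day 49. On day 105 it read 12.34, 10.74 and 10.04. All specimens of days 33 and 49 were above all of day 7 and day 17, and those of day 105 lay above day 7 but reached down into day 17. The day means spanned 3.31 log2 units (adjusted p 4.1e-05), which is the step between days 33 and 7 (SE 0.49). Day 105 was 1.83 above day 7 (SE 0.49), 3.57-fold, adjusted p 0.0073. It was -1.26 relative to day 49 (95% interval -2.25 to -0.26, not adjusted), a step that was not tested on its own. The step between days 105 and 7 was 1.18 (adjusted p 0.09) without the highest specimen of day 105, and its call also ended with arrays not averaged (adjusted p 0.0809). In study 1 the whole granuloma gave 9.35 and 9.67 on day 7, 10.09 and 9.83 on day 17, 10.34, 10.70 and 10.05 on day 33 and 11.22 on day 104. The day means ascended over a smaller span, with no call.

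Marco ran opposite to Gpnmb in the whole granuloma of study 2. It read 11.35, 12.30 and 9.91 on day 7, and 9.64, 11.28 and 12.28 on day 17. It dropped to 7.45, 7.78 and 7.38 on day 33 and read 8.68, 7.24 and 7.90 on day 49, with 10.21, 10.04 and 9.16 on day 105. Every specimen of days 33 and 49 was below every specimen of the other days. The span was 3.65 log2 units (adjusted p 0.00061), from day 33 minus day 7 (SE 0.78). Day 105 exceeded day 49 by 1.86 (95% interval 0.29 to 3.44, not adjusted), a step that was not tested on its own. Day 105 minus day 7 was -1.38 and did not pass (adjusted p 0.23). In study 1 Marco read 9.38 and 8.92 on day 7, and between 7.30 and 8.57 in the 6 later specimens. Over the 15 whole granuloma specimens of study 2 the correlation of Gpnmb and Marco was -0.72, and over the 8 of study 1 it was -0.52, as a description, since specimens of a day share its treatment time.

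The upstream regions of the genes with the widest day courses are shown, Cd68 beside them as a lysosomal gene. Each is the RefSeq window of 250 bases before to 50 after the start of the gene in build GRCm38.p6. Capitals mark, in Gpnmb, the AP-1 motif TGACTCA, and in Marco the PU.1 core GAGGAA and a pair of overlapping E-boxes, CACATG and its reverse complement. In Cd68 they mark both PU.1 cores and both AP-1 motifs. The windows are chr6:49036268-49036567 on the plus strand for Gpnmb, chr1:120504975-120505274 on the minus strand for Marco and chr11:69666121-69666420 on the minus strand for Cd68.
Gpnmb: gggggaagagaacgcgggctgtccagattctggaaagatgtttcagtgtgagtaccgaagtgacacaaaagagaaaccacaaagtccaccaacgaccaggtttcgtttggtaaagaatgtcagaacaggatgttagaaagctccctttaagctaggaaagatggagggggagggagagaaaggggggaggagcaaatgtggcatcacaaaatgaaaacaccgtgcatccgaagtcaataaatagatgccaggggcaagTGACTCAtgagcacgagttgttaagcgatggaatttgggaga
Marco: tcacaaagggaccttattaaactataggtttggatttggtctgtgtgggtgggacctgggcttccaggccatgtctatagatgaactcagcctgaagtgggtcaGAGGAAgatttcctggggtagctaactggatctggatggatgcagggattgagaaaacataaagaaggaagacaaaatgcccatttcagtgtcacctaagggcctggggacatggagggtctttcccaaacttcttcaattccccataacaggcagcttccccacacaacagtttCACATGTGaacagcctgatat
Cd68: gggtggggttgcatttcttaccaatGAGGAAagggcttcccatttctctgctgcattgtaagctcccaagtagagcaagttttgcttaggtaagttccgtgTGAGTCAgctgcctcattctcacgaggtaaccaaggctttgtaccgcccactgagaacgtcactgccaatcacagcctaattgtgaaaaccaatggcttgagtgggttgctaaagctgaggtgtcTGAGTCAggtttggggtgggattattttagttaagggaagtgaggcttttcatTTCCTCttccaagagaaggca

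Motifs were searched on both strands, and were picked after these sequences had been seen. GAGGAA occurs in 28.3% of all 32851 windows of this length, TGACTCA in 5.2%, CACATG in 14.2% and CACGTG in 7.15%. The Gpnmb window holds neither E-box, and CACGTG was in none of the 3 windows printed. Windows were found for 5 of the 7 genes looked up. A match describes letters only and says nothing about binding.

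**Figure D3:**
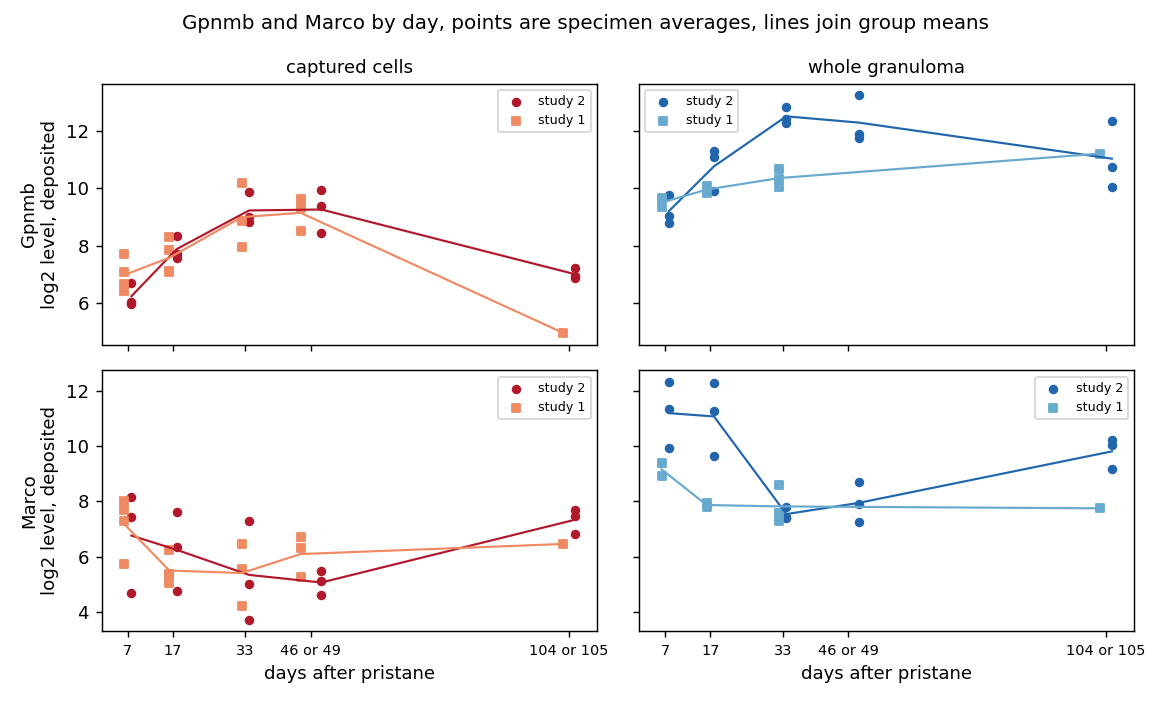
Deposited log2 levels of Gpnmb (top) and Marco (bottom) by days after pristane, captured cells left and whole granuloma right. Points are specimen averages (study 2 circles, study 1 squares) and lines join group means. Gpnmb of study 2 peaks on days 33 and 49 in both tissue types, and Marco of the whole granuloma of study 2 is lowest on those days.

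The captured cells were tested in the same way. In study 2, 2 of the 9 genes changed over the days, Gpnmb and Cd14, where 14.4% of all probe sets did, and 4 of 9 without the array that stood apart, where 15% did. In study 1 Gpnmb alone changed, where 0.707% of all probe sets did, and Lyz2 as well without that array, where 1.76% did. None of the 9 genes differed between days 105 and 7 in study 2 (7.14% of all probe sets, and 1 gene at an unadjusted p under 0.05 beside 21% of all probe sets). None differed between days 104 and 7 in study 1 (0.798% of all probe sets, and 6 genes unadjusted beside 9.97%). Day 104 there is 1 specimen, with the spread assumed to be that of the other groups. Without the array that stood apart, which belongs to study 2, Lyz2 passed on that 1 specimen, at -1.82 (adjusted p 0.0105), where 1.52% of all probe sets did.

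Gpnmb of the captured cells of study 2 was highest on days 33 and 49. It read 6.05, 6.71 and 5.98 on day 7, and 8.35, 7.72 and 7.59 on day 17. It read 9.00, 9.88 and 8.82 on day 33, and 9.96, 8.45 and 9.39 on day 49. On day 105 it read 6.87, 7.22 and 6.95, below every specimen of days 17, 33 and 49 and above every specimen of day 7. The span was 3.02 (adjusted p 8.3e-05), and 3.77 (adjusted p 6.04e-06) without the array that stood apart. RNA quality moved with the days in these cells: the mean 3′ minus 5′ difference was 4.66, 4.70, 4.51, 3.37 and 3.46 on days 7, 17, 33, 49 and 105 of study 2. It was 4.44, 4.91, 4.43, 4.07 and 4.25 on days 7, 17, 33, 46 and 104 of study 1. With that difference as a covariate the span of Gpnmb was 3.15 (adjusted p 0.000194) in study 2 and 4.20 (adjusted p 0.00112) in study 1. In study 1 it read 7.10, 6.68, 6.43 and 7.72 on day 7, and 7.12, 7.07, 7.85 and 8.30 on day 17. It read 8.86, 10.19 and 7.95 on day 33, 9.30, 9.63 and 8.52 on day 46, and 4.97 in the single specimen of day 104. The span of 4.18 (adjusted p 0.00069) rests on that specimen, and without day 104 it was 2.17 (adjusted p 0.0468). In study 1 some array titles carry a date, and on the single date that days 33 and 7 share Gpnmb was 8.86 on 2 arrays of day 33 and 6.68 on 2 arrays of day 7. Each pair of arrays carries 1 specimen code, so this sets 1 specimen against 1.

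Marco of the captured cells passed no test over the days. In study 2 it read 4.68, 8.15 and 7.44 on day 7, 7.61, 6.35 and 4.76 on day 17, and 7.28, 5.01 and 3.72 on day 33. It read 5.46, 5.11 and 4.61 on day 49, and 7.69, 7.47 and 6.82 on day 105. The specimens of a day differed widely and the days overlapped, except that day 49 lay below day 105. In study 1 the values were 7.67, 7.30, 5.72 and 8.00 on day 7, and between 4.20 and 6.70 in the 11 later specimens. The SD between arrays of 1 specimen was 1.70 for Marco in study 2, against 0.936 for Gpnmb.

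In the whole granuloma of study 2, Cd14 was lower on the last day than on all others. It read 11.97, 12.72 and 11.56 on day 7, 12.20, 12.92 and 11.53 on day 17 and 11.83, 11.87 and 11.53 on day 33. It read 12.43, 12.09 and 11.85 on day 49 and only 10.30, 9.86 and 10.04 on day 105. Day 105 lay below every earlier specimen, at -2.02 relative to day 7 (SE 0.51), 4.05-fold lower, adjusted p 0.0047. This call ended without 1 specimen of day 7, at -1.70 (adjusted p 0.0517), and with arrays not averaged (adjusted p 0.103). The call over the days (adjusted p 0.0066) ended with arrays not averaged (adjusted p 0.214) and without either of 2 specimens of day 105 (adjusted p 0.0705 and 0.0512). In the captured cells of study 2 it read 8.84, 9.09 and 9.46 on day 7, 10.95, 8.89 and 9.34 on day 17, and 10.53, 9.95 and 9.40 on day 33. It read 10.13, 7.05 and 8.30 on day 49 and 7.99, 7.47 and 8.02 on day 105, a span of 2.14 (adjusted p 0.014), which was 1.96 with the 3′ minus 5′ covariate (adjusted p 0.0968) and 1.96 without 1 specimen of day 105 (adjusted p 0.0597). The low specimen of day 49 holds the array that stood apart. Neutrophils also carry Cd14. Between days 105 and 7 of whole granuloma of study 2, 2 of the 10 neutrophil genes tested passed downwards and none upwards. Of all probe sets 11.1% passed downwards and 6.81% upwards. The 2 genes were S100a8 at -2.05 (adjusted p 0.017) and S100a9 at -2.32 (adjusted p 0.032), and the median over the 10 was -0.34. The summed level of the 10 (log2 of the summed values) was 10.65 to 11.70 in whole granuloma of day 105, against 11.82 to 14.21 on the earlier days of study 2. In such a sum the brightest genes weigh most, so it does not describe the 10 genes as a group. The part of these markers in the Cd14 result was not tested.

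Trem2, read on 1421792_s_at, was highest in the whole granuloma of study 2 on day 49. It read 7.76, 7.87 and 8.12 on day 7, and 8.58, 9.01 and 8.78 on day 17. It read 8.37, 8.56 and 8.82 on day 33, 9.89, 8.88 and 8.87 on day 49 and 8.05, 7.69 and 7.96 on day 105. Days 7 and 105 overlapped each other and lay below all specimens of the days between. The span was 1.31 (adjusted p 0.0014), day 49 was 1.29 above day 7 (SE 0.28) and day 105 was -1.31 relative to day 49 (SE 0.28). These steps were not tested on their own. In captured cells of study 2, Trem2 had levels of 4.97 to 6.13 with no call over the days.

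In the whole granuloma of study 2, Cd68 and Lyz2 did not pass over the days in the fit of all arrays but passed without the array that stood apart. Cd68 there read 11.17, 11.93 and 11.01 on day 7, 12.51, 12.16 and 13.14 on day 49 and 11.74, 10.49 and 10.96 on day 105. Every specimen of day 49 exceeded every specimen of days 7 and 105. The adjusted p over the days was 0.12, and 0.0364 without the array. Lyz2 read 13.98, 14.39 and 14.01 on day 7 and 13.60, 12.71 and 12.88 on day 105, where it lay below all specimens of the earlier days, with adjusted p of 0.20 and 0.00534. Its difference between days 105 and 7 was -1.06, with an adjusted p of 0.13 and, without the array, of 0.0074, where 22.8% of all probe sets passed. In the captured cells of study 2 the spans were 1.88 for Cd68 (adjusted p 0.053) and 1.51 for Lyz2 (adjusted p 0.062), and 7 and 3 of the 33 fits that left out 1 specimen called them. In the captured cells of study 1 the specimen of day 104 had the lowest Lyz2, at 9.59, against 10.45 to 12.38 on the earlier days.

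**Figure D4:**
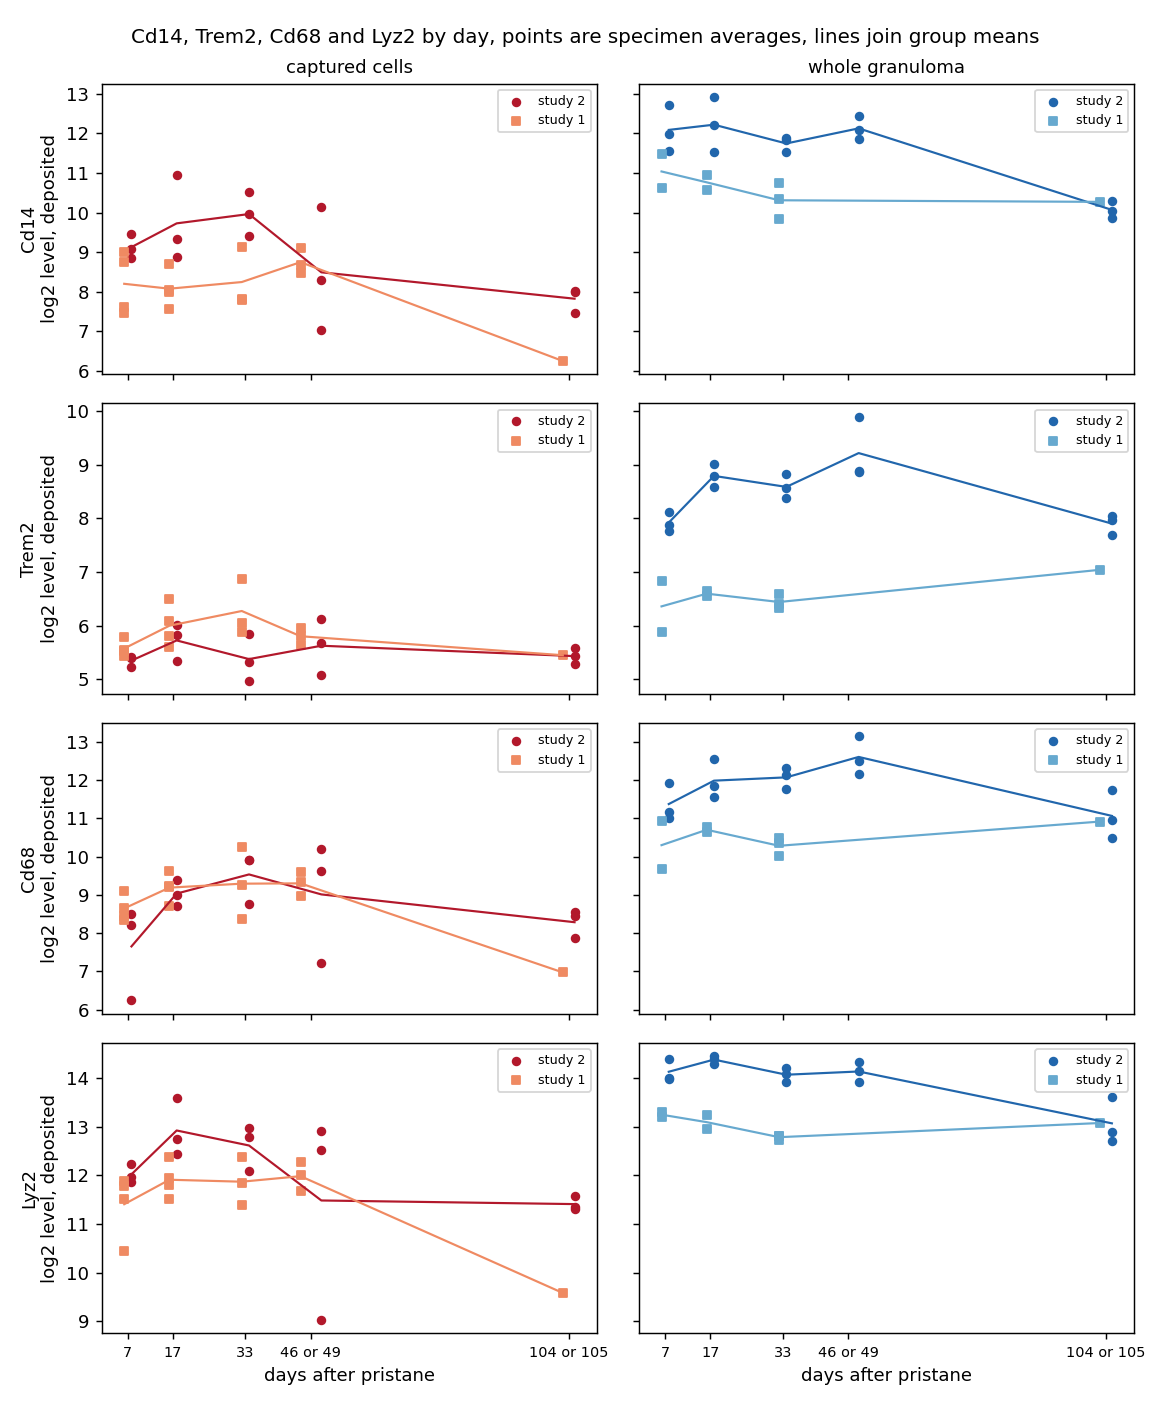
Deposited log2 levels of Cd14, Trem2, Cd68 and Lyz2 by days after pristane, captured cells left and whole granuloma right. Points are specimen averages (study 2 circles, study 1 squares) and lines join group means. In whole granuloma of study 2, Cd14 and Lyz2 are lowest on day 105 and Cd68 and Trem2 highest on day 49.

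Adgre1, Csf1r and Msr1 passed no test over the days in the fit of all arrays. In the whole granuloma of study 2 the day means of Adgre1 lay between 10.54 on day 105 and 11.21 on day 33 (adjusted p 0.56). Those of Csf1r lay between 11.25 on day 105 and 12.76 on day 17 (adjusted p 0.14, and 0.0152 without the array that stood apart). Those of Msr1 lay between 9.78 on day 105 and 11.02 on day 33 (adjusted p 0.24). Of the dimmer probe sets of Csf1r, Trem2 and Msr1, none passed over the days of whole granuloma of study 2. Between days 105 and 7 a single one passed, Msr1 1422062_at, which fell by 1.12 (SE 0.40, adjusted p 0.043), where the brightest probe set of Msr1 gave -0.23 (adjusted p 0.8).

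Other genes of the same pathways were read from lists whose genes are given with the processing. Their counts stand beside the shares of all probe sets: 35.9% downwards and 34.6% upwards for captured cells against whole granuloma of study 2, 29.3% and 32.2% for study 1, 23.1% over the days of whole granuloma of study 2, and 11.1% downwards and 6.81% upwards between its days 105 and 7. Of the genes that lipid-laden macrophages express, 10 were tested, and 8 passed downwards in the captured cells of each study. They included Apoe, the lipoprotein ligand, at -1.90 (adjusted p 4.2e-10) in study 2 and -2.31 (adjusted p 3.8e-08) in study 1, and the lysosomal protease Ctsd at -1.49 (adjusted p 6.1e-12) and -1.55 (adjusted p 2.6e-08). Over the days of whole granuloma of study 2, 3 of the 10 changed, a share near the 23.1% of all probe sets: Lpl, lipoprotein lipase, with a span of 2.28 (adjusted p 0.0098), Lgals3 with 1.96 (adjusted p 0.032) and Plin2, a lipid droplet protein, with 1.60 (adjusted p 0.048). Of 10 other scavenger and lectin receptors, the captured cells had less of 6 in study 2 and of all 10 in study 1. Cd36, which takes up oxidized lipoproteins, was at -1.83 (adjusted p 3.2e-08) in study 2 and -3.29 (adjusted p 4.8e-10) in study 1. Mrc1, the mannose receptor, was the exception, higher by 0.65 in captured cells of study 2 (adjusted p 0.00053) and at -1.90 in study 1 (adjusted p 6e-09). Over the days of whole granuloma 5 of the 10 changed, and between days 105 and 7 of study 2, 7 of 10 fell and none rose, among them Clec4e at -2.94 (adjusted p 0.0035), Cd163 at -2.47 (adjusted p 0.00098), Cd36 at -2.46 (adjusted p 0.0024) and Clec4d at -1.92 (adjusted p 0.0058).

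Of the genes that work with Cd14, 5 were tested. Tlr2, a receptor of bacterial lipoproteins, was lower in captured cells of both studies, at -1.07 (adjusted p 7.5e-08) and -2.20 (adjusted p 5.7e-11), while Ly96, the partner of Tlr4, was 0.89 higher in both (adjusted p 3.4e-05 and 0.0028). Between days 105 and 7 of whole granuloma of study 2, Tlr4 fell by 1.77 (adjusted p 0.0018) and Tlr2 by 1.23 (adjusted p 0.015), the 2 of the 5 that passed. Among the Trem2 signalling genes, Tyrobp gave -0.09 in study 2 (adjusted p 0.61) and -1.59 in study 1 (adjusted p 1.7e-07). Of the 5 tested, study 2 had 1 that passed upwards and 1 downwards, and study 1 had 2 of each. Of the Mitf family and its lysosomal targets, 6 were tested, of which 4 passed downwards in captured cells of each study and 1 upwards in study 2. That one was Mitf itself, higher by 0.76 in captured cells of study 2 (adjusted p 4.2e-05) and at -1.05 in study 1 (adjusted p 9.4e-05). None of the 6 changed over the days of whole granuloma or of captured cells of study 2. Of the growth and identity genes, 4 of 8 passed downwards in study 2 and 6 of 8 in study 1, with Cebpa at -1.96 (adjusted p 3.5e-10) and -2.43 (adjusted p 2.1e-08), whereas Spi1, which encodes PU.1, passed in neither, at -0.22 and 0.02.

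Of 15 further macrophage genes, study 2 had 8 that passed downwards in captured cells and 2 upwards, and study 1 had 9 downwards and none upwards. Cybb, the NADPH oxidase subunit, was at -2.41 (adjusted p 1.1e-08) and -3.23 (adjusted p 9.1e-08). None of the 15 changed over the days of whole granuloma of study 2. Of 8 markers of resident peritoneal macrophages, study 2 had 6 downwards and 1 upwards, and study 1 had 7 downwards. They included Gata6, their defining transcription factor, at -1.73 (adjusted p 5.9e-12) and -0.78 (adjusted p 0.0041).

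Markers of other cells were read in the same way. Of 9 plasma cell genes, 5 were higher in captured cells of study 2 and 3 in study 1, and none was lower. Of all probe sets, 34.6% passed upwards in study 2 and 32.2% in study 1, so the study 1 count lay near that share. Downwards, 35.9% and 29.3% passed. Slamf7 was higher by 1.46 and 1.48, Tnfrsf17, the BCMA receptor, by 1.34 and 0.85, and Jchain by 0.06 and 0.15 with no call. All 6 smooth muscle genes and all 5 adipocyte genes tested passed downwards in the captured cells of both studies. In whole granuloma of study 2 the summed smooth muscle level was 8.90 to 11.61 on day 105, against 14.47 to 15.67 on day 7. It was 11.08 to 14.59 on day 17, 12.45 to 13.58 on day 33 and 10.53 to 15.83 on day 49. Study 1 went the other way, from 10.89 to 11.74 on day 7 to 12.25 in the single specimen of day 104. The summed adipocyte level of study 2 was 10.25 to 12.63 on day 105, against 14.20 to 15.01 on day 7, and 11.73 to 15.24 on day 49. The summed plasma cell level of study 2 was 15.22 to 15.71 on day 105, against 14.78 to 14.84 on day 7, and 14.69 to 15.08 on day 49. In study 1 the adipocyte level was 12.24 on day 104, against 12.9 to 13.36 on day 7. The plasma cell level there was 14.14, against 13.46 to 13.5. Of the genes that other cells share with Gpnmb, 3 of 5 osteoclast markers and 1 of 4 melanocyte markers on the array passed the filter. That melanocyte marker was Pmel, the one most like Gpnmb in protein. It rose by 0.93 between days 105 and 7 of whole granuloma of study 2 (adjusted p 0.00092). Unlike Gpnmb, it passed upwards in captured cells, by 0.96 in study 2 and 0.85 in study 1. Of the 3 osteoclast markers, 2 passed downwards and 1 upwards in captured cells of study 2 and 2 downwards in study 1. Of 3 dendritic cell genes tested, 1 passed downwards and 2 upwards in study 2, and 1 each way in study 1. The part of these tissue shares in the day courses was not tested. Which cells the differences of Cd36, Lpl, Plin2 and Cebpa given above come from, macrophages or adipocytes among them, was not tested either.

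The genes whose levels ran most like Gpnmb over the 15 whole granuloma specimens of study 2, of 8591 searched, were Frzb (r 0.861, and 0.642 over the 8 specimens of study 1), Mmp3 (0.853 and 0.414), Ccn3 (0.852 and 0.586), Plpp2 (0.849 and -0.331) and Pld3 (0.842 and 0.495). For Cd68 they were Tmem106a (0.946 and 0.381), Ctsa (0.915 and 0.835), Tcirg1 (0.908 and 0.339), Slc15a3 (0.904 and 0.808) and Dop1b (0.901 and 0.483). Plpp2 kept no such likeness in study 1. Of the genes listed for Cd68, Ctsa and Slc15a3 had coefficients above 0.80 in both studies. Tmem106a, Tcirg1 and Dop1b fell to 0.381, 0.339 and 0.483 in study 1. Gpnmb and Cd68 themselves had 0.677 over the 15 specimens. These coefficients describe levels that share days, specimens and arrays.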

How the data were processed

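Arrays of 2 cohorts (82 in all) measured laser-captured plasma cells and whole granuloma. The authors deposited 1 table of log2 values. Per the submitters' processing notes it was made by RMA, run in Partek, with no version given. RNA was amplified in repeated linear rounds, per the labels' protocols. Study, tissue type and day were taken from the labels and the specimen code from each title. Whether arrays of 1 code are technical repeats is not stated, and they were averaged. The number of specimens, not of arrays, limits the precision.

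Probe sets were named from the platform's gene table (20393 with 1 symbol, 691 with several, 1606 with none). A probe set was tested when it lay above the median of its array in at least 3 specimen averages, which left 14286. A single fit of all 19 groups (53 averages, 33 specimens, 20 with both tissue types) was made with limma 3.58.1 in R 4.3.3, with the specimen as a random block (correlation 0.103 on quantile-normalized and 0.112 on deposited values) and 34 residual degrees of freedom. P-values were adjusted by Benjamini-Hochberg over all probe sets tested, with a threshold of 0.05. Captured cells and whole granuloma were compared with equal weight for each day. Day 104 of study 1 is 1 specimen, and its spread is that of the pooled fit. A span is the largest difference between day means, tested with a moderated F test. Levels on the array are not comparable between probe sets.

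Captured cells and whole granuloma of 1 specimen share a code in the titles, and this pairing is the block. Deviations of the 2 tissue types correlated between -0.157 and 0.649 over 15 specimens of study 2 and between 0.0247 and 0.238 over 4 of study 1. The members, the lists and the rule for named genes were chosen with earlier results of these data known. Every member probe set is named. Of each other list, up to 4 genes past the threshold with the largest size were to be named, with the exceptions given. The fits were tested on simulated data.

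The list for growth and identity held Csf1, Il34, Csf2ra, Csf2rb, Spi1, Cebpa, Cebpb, Irf8 and Klf4. The list for Trem2 signalling held Tyrobp, Hcst, Syk, Plcg2 and Vav3. The list for lipid-laden macrophages held Apoe, Lpl, Cd9, Spp1, Lgals3, Fabp5, Ctsb, Ctsd, Ctsl, Cd63, Lipa and Plin2. The list for Mitf family and lysosomal targets held Mitf, Tfe3, Tfeb, Atp6v0d2, Acp5, Ctsk, Lamp1 and Mcoln1. The list for other scavenger and lectin receptors held Cd36, Scarb1, Olr1, Colec12, Stab1, Mrc1, Cd163, Clec7a, Clec4d and Clec4e. The list for genes that work with Cd14 held Tlr4, Ly96, Lbp, Tlr2, Myd88, Irak4 and Ticam2. The list for resident peritoneal macrophages held Gata6, Timd4, Vsig4, Cd5l, Icam2, Fn1, Alox15, Itgam and Cd93. The list for further macrophage genes held Aif1, Mpeg1, C1qa, C1qb, C1qc, Fcgr1, Fcgr3, Fcer1g, Mertk, Ctss, Ms4a7, Cx3cr1, Ccr2, Itgb2, Ptafr and Cybb. The list for plasma cells held Sdc1, Jchain, Xbp1, Prdm1, Irf4, Tnfrsf17, Mzb1, Slamf7, Derl3 and Pou2af1. The list for neutrophils held S100a8, S100a9, Ngp, Camp, Ltf, Lcn2, Retnlg, Mpo, Elane, Csf3r and Cxcr2. The list for dendritic cells held Flt3, Zbtb46, Itgax, Ccr7, Xcr1, Clec9a and Cd209a. The list for osteoclasts held Calcr, Ocstamp, Dcstamp, Oscar, Mmp9 and Nfatc1. The list for melanocytes held Pmel, Mlana, Tyr, Tyrp1 and Dct. The list for adipocytes held Adipoq, Plin1, Lep, Cidec, Fabp4, Retn and Cfd. The list for smooth muscle held Actg2, Myh11, Tagln, Cnn1, Des and Myl9. Genes that were not on the array with a symbol of their own, or did not pass the filter, were not tested, and 1 gene is not reported here.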

Additional observations from a re-analysis of the deposited data

Results flagged for a closer look

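Of all probe sets tested, 47% differed between the studies in the tissue difference, and 4 of the 9 genes did, a share near it. As study 2 minus study 1 they were Cd14 by 1.41, Csf1r by 1.38, Msr1 by 1.17 and Trem2 by -1.04. Each stands in the results with the values without the single specimen of day 104 of study 1, where only Trem2 still passed.

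Each of the 15 probe sets was tested for a value far from the others in the groups of 4 specimens, captured cells of days 7 and 17 of study 1. Of these 30 tests, which share specimens, 2 held such a value, close to the 1 in 20 that chance gives. Csf1r on 1419873_s_at in captured cells of day 7 of study 1 had 1 specimen at 8.54. Msr1 on 1422062_at in captured cells of day 17 of study 1 had 1 specimen at 7.12.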

How the results depend on the processing

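Counts below are of the 9 genes that passed. The difference between the studies gave 4, but 7 with arrays centred on their medians, and 1 with the 3′ minus 5′ covariate or without days 104 and 105. With arrays not averaged and a replicate block by specimen and tissue type, the change of the tissue difference over the days of study 1 gave 1 in place of 0, and day 105 minus day 7 of whole granuloma of study 2 gave 0 in place of 2. With letters of codes as separate specimens the days of captured cells of study 2 gave 5 in place of 2. With the title date as a random block, over dated arrays, the days of captured cells of study 1 gave 7 in place of 1. That fit took single arrays with no specimen block. Repeat arrays of 1 specimen, such as the 5 of day 104, counted as replicates, so its count cannot be set against the main one. Without the array that stood apart, an alternative chosen after the data were seen, the days of whole granuloma of study 2 gave 7, day 105 minus day 7 there 4, the days of captured cells 4 in study 2 and 2 in study 1, and day 104 minus day 7 of captured cells of study 1 gave 1. With no replicate block the count was 8 in each study for captured cells against whole granuloma, 4 for the difference between the studies and 4 for the days of whole granuloma of study 2, and with specimens that have both tissue types as a fixed block it was 8 in study 2 and 6 in study 1. Leaving out 1 specimen at a time gave 1 to 6 for the difference between the studies, 0 to 1 for the change over the days of study 2, 3 to 7 and 1 to 4 for the days and the last day of whole granuloma of study 2, 1 to 5 and 1 to 2 for the days of captured cells of study 2 and study 1, and 0 to 1 for day 104 minus day 7 of captured cells of study 1. For single probe sets, 41 of 5919 values changed sign, 8 of them where one of the values passed, and the cause was not tested. On the deposited values, captured cells minus whole granuloma was -0.88 for Csf1r, -1.29 for Msr1 1422062_at and -1.51 for Msr1 1425435_at in study 2, and -0.78 for Trem2 and -0.49 for Msr1 1425434_a_at in study 1, and the difference between the studies was -0.18 for Gpnmb, -0.29 for Adgre1 and -0.36 for Csf1r 1423593_a_at. With arrays centred on their medians, it was 0.41 for Csf1r 1419873_s_at and 0.0145 for Lyz2 in study 2, -0.0419 for Trem2 in study 1 and 0.16 for the study difference of Cd68. With the covariate, Csf1r was -1.47 and Msr1 1422062_at -0.48 in study 2, Trem2 was -0.24 in study 1, the study difference of Marco was 0.23, day 105 minus day 7 of Trem2 in whole granuloma was 0.00460 and that of Marco in captured cells of study 2 was -0.0658. On quantile-normalized values day 105 minus day 7 was 0.13 for Trem2 in whole granuloma and -0.00539 for Adgre1 in captured cells of study 2. The study difference of Cd68 was 0.0137 with letters as separate specimens, and that of Gpnmb -0.0181 without days 104 and 105. Leaving out 1 specimen at a time gave, for captured cells minus whole granuloma, -0.18 to 0.0485 for Csf1r 1419873_s_at in study 2 and -0.0710 to 0.31 for Trem2 in study 1, and for the study difference -0.0181 to 1.04 for Gpnmb and -0.83 to 0.10 for Cd68. For day 105 minus day 7 of study 2 it gave -0.10 to 0.0859 for Trem2 and -0.49 to 0.0718 for Msr1 in whole granuloma, and -0.0736 to 1.06 for Cd68, -0.0411 to 0.40 for Adgre1, -0.47 to 0.21 for Msr1 and -0.47 to 1.27 for Marco in captured cells.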
